A study of Mus musculus with 6 samples.

Results

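The 32 genes described here are targets of the transcription factor ATF4 and genes that supply the cell with amino acids. They were taken by gene symbol from a table of 24421 genes, and all 32 were found in it. Messenger RNA had been sequenced from 4T1 cells, a mouse mammary adenocarcinoma line grown in culture at 21% oxygen in DMEM with serum. The cells carried a short hairpin RNA against HSF1 (shHSF1) or a control hairpin (shCTL), with 3 libraries in each group, numbered 1 to 3. The labels do not give the hairpin sequences, the number of hairpins or clones, or whether the replicates were separate cultures. The p-values therefore cover the spread among these 6 libraries, which may be technical. Values are in RPKM, the reads of a gene divided by its length and by the depth of the library, and 31 of the 32 genes had at least 0.5 RPKM in 3 or more libraries and were tested.

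ATF4 is the main effector of the integrated stress response. Kinases that sense amino acid shortage, misfolded protein in the endoplasmic reticulum, haem shortage or double-stranded RNA phosphorylate the initiation factor eIF2, which slows translation in general while letting the ATF4 reading frame be translated. ATF4 protein then pairs with C/EBP factors on composite sites in the genes of amino acid synthesis and uptake, and of its own feedback regulators. Messenger RNA levels, as measured here, do not show how much ATF4 protein was made. HSF1, the target of the hairpin, drives the heat shock response and binds a different element.

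The composite site is the C/EBP-ATF response element, searched as the letters TGATGNAA on both strands from 250 bases before to 50 bases after each transcription start listed by RefSeq (build GRCm38.p6). Of the 32 genes, 29 had such a sequence (not Cth, Slc7a5 and Slc1a5), and 9 of the 29 (31.0%) held the element in at least 1 window: Atf3, Nupr1, Trib3, Chac1, Vldlr, Asns, Pycr1, Slc7a11 and Slc1a4. Over all 27025 genes with a window the share was 4.51%, and over the 8582 of them that passed the filter on low values it was 2.60%. The 9 genes include Vldlr, which did not pass that filter. Because the genes were chosen as ATF4 targets and amino acid supply genes, the higher share may follow from that choice and is not a test. The stretches below show the element in 6 genes whose levels are described further on. They run 5′ to 3′ on the strand of the gene, with the matched letters in capitals. Those of Atf3, Chac1 and Nupr1 match the reverse complement.
Atf3 (chr1:191183424-191183455, minus strand): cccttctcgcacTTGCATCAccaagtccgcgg
Chac1 (chr2:119351037-119351068, plus strand): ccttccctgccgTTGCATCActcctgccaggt
Nupr1 (chr7:126625561-126625592, minus strand): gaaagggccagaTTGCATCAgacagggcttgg
Asns (chr6:7693213-7693244, minus strand): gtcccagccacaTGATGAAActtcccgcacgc
Pycr1 (chr11:120643832-120643863, minus strand): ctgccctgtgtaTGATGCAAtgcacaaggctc
Slc7a11 (chr3:50443660-50443691, minus strand): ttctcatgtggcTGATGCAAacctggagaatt
Slc7a11 held a second copy, and its 2 copies began at −66 and −47 relative to the start. The matched letters began at −193 in Chac1, at −110 in both Atf3 and Nupr1, at −103 in Pycr1 and at −23 in Asns. The heat shock element, searched on both strands as GAA, 2 free bases, TTC, 2 free bases and GAA, was in 0 of the 29, against 0.662% of all genes with a window. A match is a stretch of letters and does not show binding, and the absence of a match says only that these letters are not in this window.

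Between 23750025 and 36903175 reads per library were assigned to genes. The replicate 1 libraries of both groups lay apart from the rest on the first principal component of all tested genes, which carried 53.8% of the variance. Hsf1 stood at 23.2, 13.8 and 15.4 RPKM in libraries labelled shHSF1 replicates 1 to 3, against 18.4, 20.3 and 20.1 RPKM in shCTL (log2 difference −0.20, SE 0.21, limma adjusted p = 0.810). The target transcript was thus highest in a library labelled as its knockdown, replicate 1, and each direction below rests on that label. The epithelial label fitted the markers in part: Krt8 and Krt18 were at 314 RPKM or more in every library and Epcam and Cdh1 at 12.7 RPKM or more, while the basal keratin Krt14 ran from 0.0245 to 1.95 RPKM. The 5 epithelial markers summed to 1250 to 1473 RPKM in shHSF1 and 1667 to 2417 RPKM in shCTL, a sum made up mostly of Krt8 and Krt18. Epcam went the other way, at 35.9, 33.3 and 28.3 RPKM in libraries labelled shHSF1 and 14.7, 13.8 and 12.7 RPKM in shCTL. The part of such shifts in the results was not tested. The 5 leukocyte markers summed to 0.134 RPKM or less and the 3 endothelial markers to 0.143 RPKM or less in every library. Of 5 fibroblast markers, Pdgfra was at 9.93 to 37.3 RPKM and the other 4 (Col1a1, Col1a2, Dcn and Lum) at 0.371 RPKM or less.

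The design compares shHSF1 with shCTL cells. Over all 6 libraries 0 of the 31 tested genes passed an adjusted p of 0.05 in limma (Benjamini-Hochberg over all genes tested), where 0.0263% of all 11386 tested genes did. At an unadjusted p under 0.05 the count was also 0 of 31, against 11.4% of all tested genes, and voom on whole reads, with 0.0966% of all genes called, called 0 of the 31 as well. With the replicate number as a block, 0 of the 31 passed and 0.176% of all tested genes did. In 0 of the 31 did the ranges of the groups fail to overlap, against 20.0% of all tested genes. The log2 differences of the 31 ran from −0.77 to 1.44 with a median of 0.13, beside 0.05 over all tested genes. Above 0 were 20 of the 31 (64.5%), beside 57.1% of all tested genes. The libraries differed widely within each group. The median standard deviation of log2 values was 0.46 in shHSF1 and 0.75 in shCTL for the 31 genes, beside 0.24 and 0.25 for all tested genes. The median standard error of the log2 difference was 0.44 for the 31 genes, beside 0.22 for all tested genes. In bulk RNA, fewer cells with a transcript and less of it per cell cannot be told apart.

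**Figure D1:**
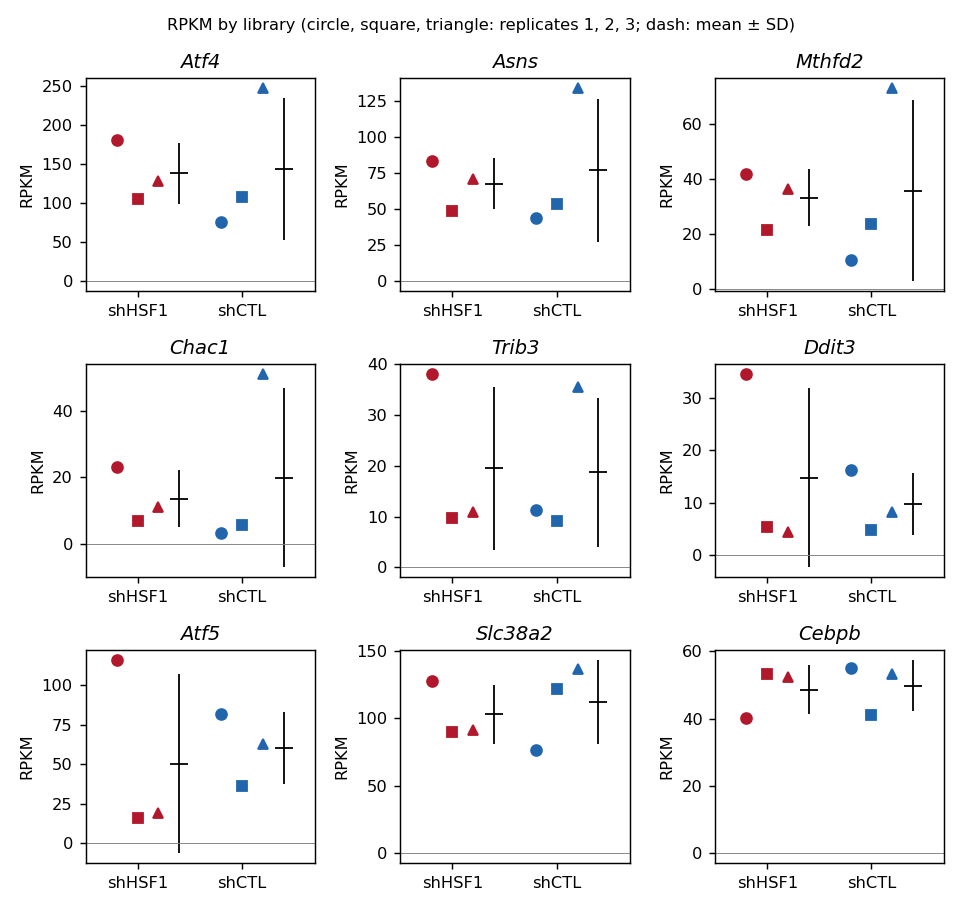
RPKM of 9 of the genes in each library (vertical axes, linear), with shHSF1 in red and shCTL in blue, circles, squares and triangles for replicates 1, 2 and 3, and dashes with bars for the mean ± SD of 3 libraries. In Atf4, Asns, Mthfd2 and Chac1 as in Slc38a2, the highest library was shCTL replicate 3, and the groups overlap in all 9 panels.

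Among the transcription factors, Atf4 itself lies on the plus strand of chromosome 15 from 80255184 to 80257545 (mm10). Its level was 181, 105 and 128 RPKM in libraries labelled shHSF1 replicates 1 to 3, against 75.4, 108 and 247 RPKM in shCTL replicates 1 to 3. The means were 138 ± 39.2 RPKM in shHSF1 and 143 ± 91.0 RPKM in shCTL (SD, n = 3 each). The log2 difference, taken between means of log2(RPKM + 0.5), was 0.09 (SE 0.44, limma adjusted p = 0.967). It was thus opposite in sign to the difference of the RPKM means. The lowest and the highest level of Atf4 were thus both in control libraries. Ddit3 encodes CHOP, a factor that ATF4 induces and that promotes cell death under lasting stress. Its level was 34.5, 5.44 and 4.45 RPKM in libraries labelled shHSF1, against 16.2, 4.88 and 8.20 RPKM in shCTL, with 7.81% of its exonic bases shared with the neighbouring gene Mars. Both replicate 1 libraries had more Ddit3 than any of the other 4, which set it apart from Atf4. Atf5, a relative of ATF4 that is also translated under stress, showed the same with 116, 15.9 and 19.3 RPKM in libraries labelled shHSF1 and 81.6, 36.1 and 62.8 RPKM in shCTL. The log2 difference of Atf5 was −0.77 (limma adjusted p = 0.786, SE 0.76), and 4.11% of its exonic bases are shared with Nup62 or a readthrough gene of Nup62. Strand was not stated for the counts, so reads of such overlaps cannot be told apart.

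Nupr1, a small stress-induced chromatin protein, stood at 196, 36.2 and 33.5 RPKM in libraries labelled shHSF1, against 71.7, 52.8 and 96.5 RPKM in shCTL. The library labelled shHSF1 replicate 1 was highest, and shHSF1 replicates 2 and 3 were the lowest of all 6. Atf3, a repressor induced by many stresses, was scarcer, at 11.7, 3.61 and 4.10 RPKM in libraries labelled shHSF1 and at 4.60, 1.58 and 4.77 RPKM in shCTL (log2 difference 0.68, SE 0.54, limma adjusted p = 0.710). The C/EBP partners were steady by comparison. Cebpb stood between 40.1 and 53.3 RPKM in shHSF1 and between 41.1 and 55.1 RPKM in shCTL, and Cebpg, a dimer partner of ATF4, between 14.3 and 18.8 RPKM in shHSF1 and between 14.5 and 20.6 RPKM in shCTL. Their highest library was 1.37 and 1.44 times their lowest, against 3.27 times for Atf4.

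Among the feedback and stress genes, Stc2 and Chac1 had the widest ranges of the 31, with 39.8 and 16.2 times between their lowest and highest library. Chac1, an enzyme that breaks down glutathione (chromosome 2, 119351242 to 119354327, plus strand), stood at 23.1, 6.77 and 10.9 RPKM in libraries labelled shHSF1, against 3.16, 5.50 and 51.0 RPKM in shCTL. Within the control group replicate 3 was 16.2 times replicate 1 and 9.28 times replicate 2. The means, 13.6 ± 8.49 RPKM in shHSF1 and 19.9 ± 27.0 RPKM in shCTL (SD, n = 3 each), differed by less than that spread. The log2 difference, between means of log2 values, was 0.26 (SE 1.00, limma adjusted p = 0.958), opposite in sign to that of the RPKM means. Trib3, a pseudokinase that restrains ATF4 and CHOP, stood at 38.1, 9.68 and 10.9 RPKM in libraries labelled shHSF1 and at 11.3, 9.22 and 35.6 RPKM in shCTL. Sesn2, a leucine sensor that restrains the growth kinase complex mTORC1, stood at 7.68, 2.05 and 2.29 RPKM in libraries labelled shHSF1 and at 1.71, 1.70 and 9.97 RPKM in shCTL. In each of these 3 genes 1 library of each group stood above its neighbours, namely the library labelled shHSF1 replicate 1 and shCTL replicate 3.

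Ppp1r15a, the GADD34 subunit that brings a phosphatase to eIF2 and so ends the response, was at 12.4, 5.38 and 4.91 RPKM in libraries labelled shHSF1 and at 6.60, 5.49 and 7.47 RPKM in shCTL. Ddit4, or REDD1, another restraint on mTORC1, was at 53.3, 48.4 and 33.2 RPKM in libraries labelled shHSF1 and at 58.3, 24.0 and 46.8 RPKM in shCTL, and did not follow Trib3 or Chac1. Stc2, a secreted glycoprotein, was the gene with the smallest p of the 31. It had 277, 93 and 129 reads in libraries labelled shHSF1, against 7, 29 and 97 reads in shCTL, which gave 6.31, 1.41 and 2.51 RPKM against 0.159, 0.681 and 1.99 RPKM. Its log2 difference was 1.44 (SE 0.63, unadjusted p = 0.0568, limma adjusted p = 0.454), and the groups overlapped, since shCTL replicate 3 was above shHSF1 replicate 2. Vldlr, a lipoprotein receptor, was not tested. It stood at 0.177, 0.714 and 0.386 RPKM in libraries labelled shHSF1 and at 1.13, 0.304 and 0.439 RPKM in shCTL.

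The 10 synthesis enzymes kept the same lowest and highest library within shCTL, but not within shHSF1. There replicate 1 was the highest for 6 of 10, beside 53.0% of all tested genes, and replicate 3 for Psat1, Phgdh, Psph and Shmt2. Asns, which makes asparagine (chromosome 6, 7675171 to 7693182, minus strand), stood at 83.7, 48.6 and 70.6 RPKM in libraries labelled shHSF1, against 43.7, 53.6 and 134 RPKM in shCTL (log2 difference −0.04, SE 0.44, limma adjusted p = 0.985). Mthfd2 and Shmt2 are mitochondrial enzymes of folate metabolism that move carbon units from serine. Mthfd2 stood at 41.9, 21.6 and 36.3 RPKM in libraries labelled shHSF1 and at 10.6, 23.7 and 73.2 RPKM in shCTL. Shmt2 stood at 86.8, 90.4 and 123 RPKM in libraries labelled shHSF1 and at 27.2, 77.7 and 145 RPKM in shCTL. In both genes the control libraries spanned the whole range of the hairpin libraries.

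The serine synthesis enzymes Phgdh, Psat1 and Psph act in that order from a glycolytic intermediate. Psat1, the most abundant, stood at 138, 145 and 197 RPKM in libraries labelled shHSF1 and at 91.5, 185 and 340 RPKM in shCTL. Phgdh was at 101, 99.0 and 133 RPKM in libraries labelled shHSF1 and at 49.9, 101 and 131 RPKM in shCTL, and Psph lay between 18.4 and 25.3 RPKM in shHSF1 and between 14.1 and 39.7 RPKM in shCTL. The proline enzymes Aldh18a1 and Pycr1 averaged 44.2 ± 8.40 and 2.77 ± 1.33 RPKM in shHSF1, and 40.2 ± 24.1 and 2.28 ± 1.42 RPKM in shCTL (SD, n = 3 each). Gpt2, a mitochondrial alanine aminotransferase, averaged 18.1 ± 7.51 RPKM in shHSF1 and 16.7 ± 14.1 RPKM in shCTL. In the control group replicate 1 was the lowest and replicate 3 the highest for 10 of 10 enzymes, where 41.8% of all tested genes had shCTL replicate 1 as the lowest and 30.4% had replicate 3 as the highest control. At most 30.4% of all tested genes thus had both. Cth, which releases cysteine from cystathionine, was at 36.5, 13.3 and 17.6 RPKM in libraries labelled shHSF1 and varied little in shCTL, at 13.2, 15.0 and 16.3 RPKM.

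Among the 8 transporters, Slc7a11 is the cystine carrier and Slc3a2 the heavy chain that it shares with Slc7a5, a carrier of large neutral amino acids. Slc7a11 stood at 13.8, 3.72 and 4.69 RPKM in libraries labelled shHSF1, against 3.65, 2.30 and 7.28 RPKM in shCTL (log2 difference 0.60, SE 0.56, limma adjusted p = 0.773). Slc3a2 averaged 52.9 ± 15.3 RPKM in shHSF1 and 60.9 ± 27.9 RPKM in shCTL, and Slc7a5 75.6 ± 18.0 RPKM in shHSF1 and 88.9 ± 37.4 RPKM in shCTL (SD, n = 3 each). Both had their highest level in shCTL replicate 3, at 93.0 RPKM for Slc3a2 and 132 RPKM for Slc7a5. Slc7a1, the carrier of arginine and lysine, stood at 47.8, 28.6 and 30.1 RPKM in libraries labelled shHSF1 and at 12.5, 26.6 and 40.7 RPKM in shCTL. Slc1a5, a carrier of glutamine and other neutral amino acids, stood at 30.3, 24.4 and 33.0 RPKM in libraries labelled shHSF1 and at 10.1, 33.3 and 48.6 RPKM in shCTL. Its relative Slc1a4 lay between 11.2 and 20.3 RPKM in shHSF1 and between 8.95 and 17.6 RPKM in shCTL. For Slc7a1, Slc1a5, Slc1a4 and Slc38a2, as for the enzymes, shCTL replicate 1 was the lowest of all 6 libraries. That is 4 of the 8 transporters, beside 26.7% of all tested genes.

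Slc38a2, a sodium-coupled carrier of small neutral amino acids that cells raise when starved of them, stood at 128, 89.7 and 91.3 RPKM in libraries labelled shHSF1, against 76.9, 122 and 137 RPKM in shCTL (log2 difference −0.10, SE 0.26, limma adjusted p = 0.936). Slc6a9, a glycine carrier, stood at 22.0, 5.46 and 5.24 RPKM in libraries labelled shHSF1 and at 9.17, 8.36 and 12.6 RPKM in shCTL. In both genes shHSF1 replicates 2 and 3 lay below shCTL replicates 2 and 3, while in the replicate 1 pair the order was the other way round.

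**Figure D2:**
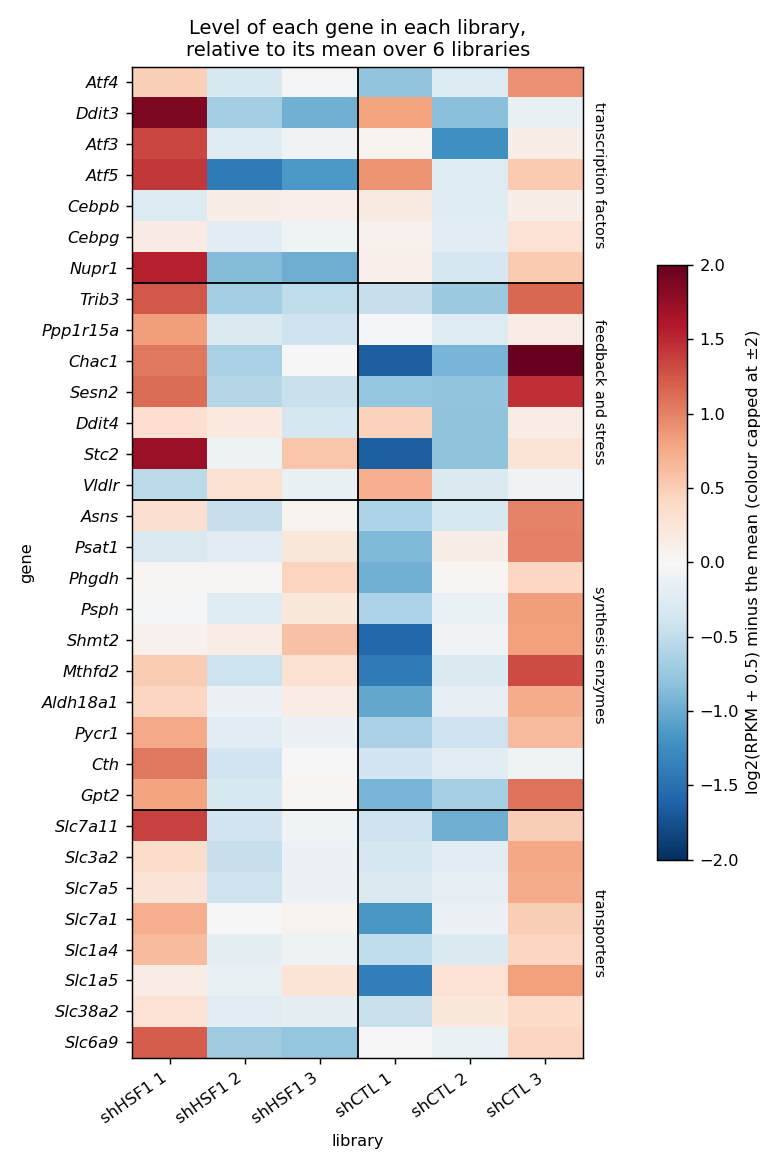
Level of each of the 32 genes in each library as log2(RPKM + 0.5) minus the mean of the gene over the 6 libraries, with colours capped at ±2, shHSF1 on the left and shCTL on the right, and genes ordered by role. The library labelled shHSF1 replicate 1 and shCTL replicate 3 are red for most genes, and shCTL replicate 1 is blue for all 10 synthesis enzymes.

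The pattern shared by these genes was one of libraries. Relative to each gene's mean over 6 libraries, the median of the 31 tested genes was 0.64 in the library labelled shHSF1 replicate 1 (log2 scale), −0.29 in shHSF1 replicate 2 and −0.07 in shHSF1 replicate 3, and −0.50, −0.26 and 0.53 in shCTL replicates 1 to 3. Over all tested genes these medians lay between −0.03 and 0.11. The library labelled shHSF1 replicate 1 and shCTL replicate 3 were the 2 highest libraries for 20 of the 31 genes (64.5%), against 3.65% of all tested genes. These 2 libraries were picked out after the values were seen, so the count describes the libraries and is not a test. The share was 7 of 8 for the transporters, 5 of 10 for the enzymes, 4 of 6 for the tested feedback and stress genes and 4 of 7 for the transcription factors. shCTL replicate 3 was the highest library for 15 of the 31 (48.4%, beside 11.3% of all tested genes) and the lowest for 0, while shCTL replicate 1 was the lowest for 17 (54.8%, beside 26.7%). The library labelled shHSF1 replicate 1 was the highest for 13 (41.9%, beside 31.6%) and among the 2 highest for 25 (80.6%, beside 50.3%). A high level in that library was thus common over all tested genes too. What those libraries share was not tested, and the labels name nothing that sets them apart.

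**Figure D3:**
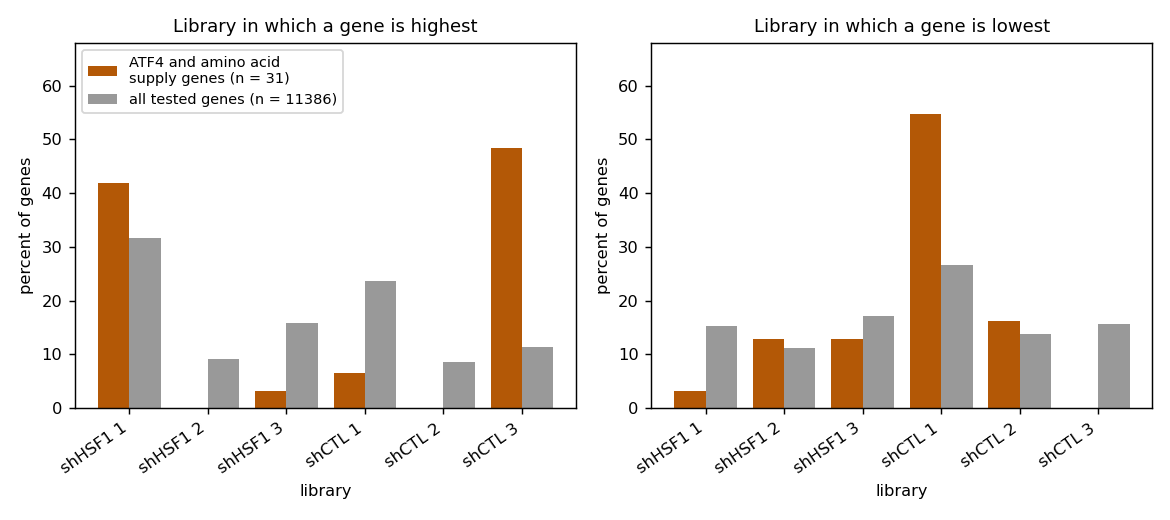
Percent of genes (vertical axis, from 0) for which each library is the highest of 6 (left) or the lowest of 6 (right), for the 31 tested ATF4 and amino acid supply genes in orange and all 11386 tested genes in grey. On the left the orange bars stand above the grey ones for shCTL replicate 3 and for the library labelled shHSF1 replicate 1. On the right they do so most for shCTL replicate 1, and slightly for shHSF1 replicate 2 and shCTL replicate 2.

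Same-numbered libraries were then compared as 3 pairs, each with 1 library per group and no test, and 2-fold limits are on the log2(RPKM + 0.5) scale. In the replicate 1 pair 29 of the 31 genes were higher in the library labelled shHSF1 (93.5%, beside 59.3% of all tested genes), with a median log2 difference of 1.26 beside 0.10. At least 2-fold higher were 20 (64.5%), against 6.20% of all tested genes, and 0 were at least 2-fold lower, against 2.61%. The exceptions in direction were Cebpb at −0.45 and Ddit4 at −0.13. In the replicate 2 pair the genes divided, with 15 higher and 16 lower and a median of −0.02. There Atf5, at −1.16, was at least 2-fold lower (1 of 31, against 1.37% of all tested genes), and 0 were at least 2-fold higher on that scale, against 3.45%. As plain RPKM ratios, without the added 0.5, Atf3 at 2.29, Stc2 at 2.06 and Ddit4 at 2.01 were more than 2-fold higher in that pair. In the replicate 3 pair 28 of the 31 were lower in shHSF1 (90.3%, beside 47.0%), with a median of −0.64 beside 0.02, and 8 were at least 2-fold lower (25.8%, against 1.01%) and 0 at least 2-fold higher (against 1.99%). Those 8 were Chac1 at −2.18, Sesn2 at −1.91, Atf5 at −1.68, Trib3 at −1.66, Nupr1 at −1.51, Slc6a9 at −1.19, Gpt2 at −1.06 and, just past the 2-fold limit, Mthfd2.

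The replicate 1 and replicate 3 pairs therefore pointed in opposite directions for most of these genes. Higher in the first and lower in the third were 26 of the 31 (83.9%), against 21.4% of all tested genes. A gene with the library labelled shHSF1 replicate 1 and shCTL replicate 3 as its 2 highest must show these directions. That holds for 20 of the 31, so the count partly restates that pattern and is not a test. Atf4 differed by 1.26, −0.04 and −0.94 in pairs 1 to 3, and Chac1 by 2.69, 0.28 and −2.18. Stc2, at 3.37, 0.69 and 0.27, was the 1 gene of the 31 that went the same way in all 3 pairs, which 49.3% of all tested genes did. This rests on pairing by replicate number, which no label explains. Stc2 in shHSF1 replicate 2, at 1.41 RPKM, lay below shCTL replicate 3, at 1.99 RPKM.

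**Figure D4:**
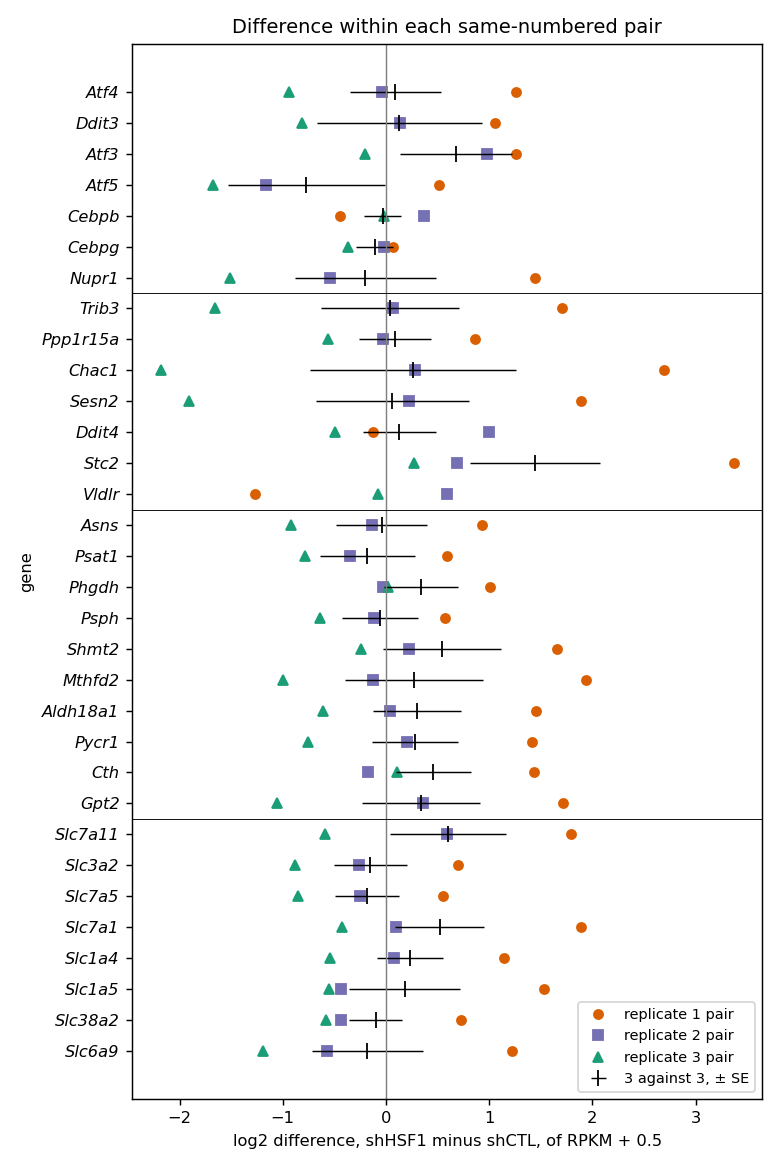
Log2 difference of RPKM + 0.5, shHSF1 minus shCTL (horizontal axis), within the replicate 1 pair (orange circles), the replicate 2 pair (purple squares) and the replicate 3 pair (green triangles), with black bars for the 3 against 3 difference ± SE of the tested genes. Orange circles lie to the right of 0 for 29 of the 31 tested genes and green triangles to the left for 28.

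Because both replicate 1 libraries stood apart, the comparison was repeated without them, as 2 against 2. Then 3 of the 31 genes were lower in shHSF1 at a limma adjusted p under 0.05 and 0 were higher, where 4.04% of all tested genes were lower, 7.04% were higher and 11.1% were called in either direction. Those 3 are 9.68% of the 31, near the share of all tested genes called in either direction. Atf5 was lower by a log2 difference of −1.42 (SE 0.26, limma adjusted p = 0.0308), Slc38a2 by −0.51 (SE 0.09, limma adjusted p = 0.0311) and Slc6a9 by −0.88 (SE 0.19, limma adjusted p = 0.0436). In the same comparison Hsf1 differed by −0.46 (SE 0.10, limma adjusted p = 0.0433). Of the epithelial markers, Epcam differed by 1.18 (limma adjusted p = 0.00854), Cdh1 by −0.98 (limma adjusted p = 0.0148) and Krt8 by −0.54 (limma adjusted p = 0.0466), and their part in the result was not tested. Nupr1, at −1.03 (SE 0.27, limma adjusted p = 0.0618), did not pass. Of the 31, 26 had a log2 difference below 0 (83.9%, beside 47.7% of all tested genes), with a median of −0.35 beside 0.02. This comparison still holds shCTL replicate 3. With shCTL replicate 3 alone left out of the 6, by contrast, 29 of the 31 were above 0. Their median was 0.52, beside 0.05 over all tested genes. In that fit 0 of the 31 passed, and 3 had an unadjusted limma p under 0.05, against 8.42% of all tested genes. With replicate 1 as a batch covariate, where 5.64% of all tested genes passed, 0 of the 31 did, and the limma adjusted p was 0.286 for Atf5, 0.828 for Slc38a2 and 0.815 for Slc6a9.

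Genes around this programme were read from 7 lists, with 118 tested genes in all. Of these 0 passed over the 6 libraries (limma adjusted p) and 19 had an unadjusted p under 0.05, or 16.1%, against 11.4% of all tested genes. Without both replicate 1 libraries 16 passed (13.6%, beside 11.1% of all tested genes). The eIF2 kinases and the eIF2 machinery, which lie upstream of ATF4, had 17 of 17 tested with a median log2 difference of 0.04, and 1 was called without the replicate 1 libraries. That was Impact, an inhibitor of the amino acid-sensing kinase GCN2, which was lower (−0.52, SE 0.11, limma adjusted p = 0.0430, without replicate 1). It stood at 15.0, 6.62 and 6.85 RPKM in libraries labelled shHSF1 and at 11.9, 9.24 and 10.6 RPKM in shCTL.

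Of 20 other reported ATF4 targets 14 were tested (median 0.28), and 3 were higher without the replicate 1 libraries (limma adjusted p from 0.0322 to 0.0464). Tnfrsf10b, a death receptor, stood at 15.4, 14.8 and 15.2 RPKM in libraries labelled shHSF1, against 6.72, 10.5 and 10.4 RPKM in shCTL, without overlap (log2 difference 0.71 over 6 libraries, SE 0.20, limma adjusted p = 0.254). Wipi1, an autophagy protein, averaged 35.1 ± 1.77 RPKM in shHSF1 and 25.8 ± 0.0903 RPKM in shCTL, and Lonp1, a mitochondrial protease, 51.8 ± 6.98 RPKM in shHSF1 and 33.5 ± 5.80 RPKM in shCTL (SD, n = 3 each). Their values did not overlap between the groups either, as in 20.0% of all tested genes. These 3 were named because they were called without replicate 1, so they cannot be set against the 31. Neither passed over 6 libraries (limma adjusted p = 0.230 for Wipi1 and 0.263 for Lonp1).

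In the list of serine, glycine and folate enzymes 15 of 18 were tested (median 0.13) and 0 passed in either comparison. Mat2b, a regulatory subunit of S-adenosylmethionine synthesis, and Mthfd2l, a close relative of Mthfd2, had the smallest p (log2 differences 0.29 and −0.32, limma adjusted p = 0.414 and 0.449). Of 26 other amino acid transporters 14 were tested (median 0.11), and 2 were higher without replicate 1 (limma adjusted p = 0.0168 and 0.0460). These were Slc38a10 (42.8 ± 7.38 RPKM in shHSF1, 27.3 ± 2.56 RPKM in shCTL, SD, n = 3 each) and Slc7a7, a scarce carrier of basic amino acids (1.52 ± 0.347 RPKM in shHSF1, 0.755 ± 0.426 RPKM in shCTL). Of the glutamine, proline, arginine and sulphur amino acid enzymes 18 of 22 were tested (median 0.14), and 4 were higher without replicate 1, namely Gls2, Asl, Sqrdl and Arg2 (limma adjusted p from 0.0155 for Gls2). Gls2, a glutaminase, averaged 4.54 ± 1.29 RPKM in shHSF1 and 2.21 ± 0.471 RPKM in shCTL, and Asl, of arginine synthesis, 24.3 ± 1.12 RPKM in shHSF1 and 16.5 ± 3.32 RPKM in shCTL. Sqrdl, which oxidises sulphide, stood at 3.23, 3.66 and 3.19 RPKM in libraries labelled shHSF1 and at 3.58, 1.36 and 0.894 RPKM in shCTL.

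Amino acid sensing by mTORC1 had 29 of 31 genes tested (median 0.05), with 1 higher (Gatsl3) and 3 lower (Rragc, Lamtor1 and Rraga) without replicate 1. The limma adjusted p without replicate 1 was 0.0196 for Gatsl3, 0.0138 for Rragc and 0.0248 for Lamtor1. Rragc, a Rag GTPase that recruits mTORC1 to lysosomes, stood at 35.8, 26.0 and 28.7 RPKM in libraries labelled shHSF1, against 50.9, 47.1 and 47.1 RPKM in shCTL (log2 difference −0.68, SE 0.15, limma adjusted p = 0.184 over 6 libraries). Lamtor1, which anchors the Rag GTPases, averaged 27.0 ± 3.09 RPKM in shHSF1 and 40.6 ± 3.05 RPKM in shCTL (−0.58, SE 0.14, limma adjusted p = 0.210). Gatsl3, the arginine sensor CASTOR1, averaged 2.85 ± 0.523 RPKM in shHSF1 and 1.38 ± 0.473 RPKM in shCTL (0.85, SE 0.25, limma adjusted p = 0.284). In these 3, named because they were called without replicate 1, the groups did not overlap, as in 20.0% of all tested genes. The last list, other ATF, CREB and C/EBP factors, had 14 of 17 tested (median 0.03) and 2 higher without replicate 1 (limma adjusted p = 0.0482 for Cebpd and 0.0391 for Batf3), both scarce. Cebpd stood at 1.75, 3.20 and 2.59 RPKM in libraries labelled shHSF1 and at 0.377, 0.764 and 1.52 RPKM in shCTL, and Batf3 at 0.631, 3.16 and 3.33 RPKM in libraries labelled shHSF1 and at 0.798, 1.89 and 1.97 RPKM in shCTL.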

How the data were processed

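Polyadenylated RNA was made into libraries with a KAPA mRNA HyperPrep kit, per the labels' protocols. STAR, featureCounts and the build mm10 are named in the submitters' processing notes. Their versions, the annotation, any use of strand and the handling of reads that fall in 2 genes were not stated. The authors deposited RPKM with gene lengths and positions. RPKM multiplied by length gave whole reads for 100% of values above 0 within a tolerance of 0.001, and read totals cover counting error only. The number of value columns of unmatched samples was 0. In the file 27 symbols read as dates, none of them of the 32 genes.

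Sample titles gave the groups and the replicate numbers. In all, 11386 genes reached 0.5 RPKM in 3 or more of the 6 libraries. These were tested in R 4.3.3 with limma 3.58.1 on log2(RPKM + 0.5), with a variance trend and without a replicate block, shHSF1 minus shCTL, and p-values were adjusted over all tested genes at 0.05. Fold changes on that scale understate the change of low genes. Alternatives were pseudocounts of 0.1 and 1, other filters, median-of-ratios scaling, the replicate block, replicate 1 as a covariate, voom on whole reads, and libraries left out. The code was tested on simulated data that had the same spread for all tested genes and no shift of replicate 1. That test does not show how the fits behave on libraries that differ as these do. Tables and figures used Python 3.11.15, pandas 2.3.3, numpy 2.4.6 and matplotlib 3.10.9.

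The genes, the 7 lists and the alternatives were chosen with earlier results of these data known. In the mTORC1 list the symbol of 1 gene (Bmt2) was corrected after the values were seen. Named from each list were genes past the test, or up to 3 called without both replicate 1 libraries, or else the 2 with the smallest p. Each library was set against its group mean, and across genes these deviations correlated between libraries of the same number at 0.58, 0.18 and 0.68 for replicates 1, 2 and 3. All lay above 0.1, so the numbers were taken as pairs, although no label tells what same-numbered libraries have in common. The number 2 libraries correlated more with number 3 libraries of the other group (0.24 and 0.51). Replicate 1 stood apart in both groups, so libraries 2 and 3 tend to deviate alike whether matched or crossed. The correlations therefore do not establish which of libraries 2 and 3 belong together.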

Additional observations from a re-analysis of the deposited data

How the results depend on the processing

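None of the 31 tested genes passed over all 6 libraries, and 3 did in 1 of 15 alternatives, the comparison without both replicate 1 libraries, so the count ran from 0 to 3 with libraries left out. For the 118 genes of the lists the count of 0 went to 7 with replicate 1 as a batch covariate and ran from 0 to 16 with libraries left out. Over all tested genes 3 passed, against 18 with no filter on low values, 11 with voom on whole reads, 20 with the replicate block, 642 with replicate 1 as a batch covariate, and 0 to 1262 with libraries left out. It was 8 without the library labelled shHSF1 replicate 1, 1 without shHSF1 replicate 3, 0 without shHSF1 replicate 2 or shCTL replicate 2, and 5 without shCTL replicate 3. The replicate block changed no call among the 31 genes or the lists. The cause of these changes was not tested. Atf3, Atf5, Stc2 and Slc7a11 kept the sign of their log2 difference in all 15 alternatives, and 27 genes changed it in at least 1. For the first 4 the difference still moved with libraries left out, from 0.18 to 0.97 for Atf3, −1.67 to −0.26 for Atf5, 0.48 to 1.94 for Stc2 and 0.00 to 1.00 for Slc7a11, whose 0.00 came without both replicate 1 libraries. Trib3 was at −0.02 with median-of-ratios scaling and with voom, and Sesn2 at −0.01 with voom. With libraries left out (1 at a time, or both replicate 1 libraries), the log2 difference ran from −0.49 to 0.57 for Atf4, −0.77 to 0.65 for Ddit3, −0.16 to 0.18 for Cebpb, −0.24 to 0.01 for Cebpg, −1.03 to 0.24 for Nupr1, −0.80 to 0.62 for Trib3 and −0.31 to 0.32 for Ppp1r15a. Further ranges were −0.95 to 1.42 for Chac1, −0.85 to 0.81 for Sesn2, −0.24 to 0.39 for Ddit4, −0.53 to 0.44 for Asns, −0.66 to 0.28 for Psat1, −0.06 to 0.63 for Phgdh and −0.39 to 0.35 for Psph. The enzymes and some carriers followed with −0.11 to 1.09 for Shmt2, −0.57 to 0.99 for Mthfd2, −0.28 to 0.74 for Aldh18a1, −0.28 to 0.67 for Pycr1, −0.03 to 0.76 for Cth, −0.35 to 0.97 for Gpt2 and −0.57 to 0.20 for Slc3a2. The remaining ranges were −0.55 to 0.14 for Slc7a5, −0.16 to 0.90 for Slc7a1, −0.23 to 0.51 for Slc1a4, −0.50 to 0.64 for Slc1a5, −0.51 to 0.07 for Slc38a2 and −0.88 to 0.16 for Slc6a9. Counting error limits Stc2 most, whose lowest library held 7 reads.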

Other observations

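Of the 118 tested genes of the surrounding lists, 8 (6.78%, beside 3.65% of all tested genes) had the library labelled shHSF1 replicate 1 and shCTL replicate 3 as their 2 highest libraries, as 20 of the 31 genes did. They were named after their values were seen, and 0 of the 8 passed the test between the groups (limma adjusted p of 0.721 or more). By list the share was 3 of 14 (21.4%) for other reported ATF4 targets and 2 of 14 (14.3%) for other amino acid transporters. It was 2 of 15 (13.3%) for serine, glycine and folate enzymes and 2 of 29 (6.90%) for amino acid sensing by mTORC1. The remaining lists had 0, and Eif4ebp1 counts in both the ATF4 target list and the mTORC1 list. Eif4ebp1, a repressor of cap-dependent translation, stood at 91.2, 77.8 and 81.7 RPKM in libraries labelled shHSF1 replicates 1 to 3 and at 60.3, 66.8 and 130 RPKM in shCTL replicates 1 to 3. Pck2, the mitochondrial enzyme that makes phosphoenolpyruvate, stood at 28.5, 15.7 and 16.7 RPKM in libraries labelled shHSF1 and at 13.0, 10.4 and 22.4 RPKM in shCTL. Herpud1, of protein degradation at the endoplasmic reticulum, stood at 40.0, 31.0 and 29.2 RPKM in libraries labelled shHSF1 and at 25.9, 21.7 and 54.0 RPKM in shCTL. Mat2a, which makes S-adenosylmethionine, stood at 96.5, 54.0 and 71.4 RPKM in libraries labelled shHSF1 and at 45.0, 69.2 and 80.2 RPKM in shCTL. Mios, Slc38a1 and Slc25a22 were also among them.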
